A study of Mus musculus with 40 samples.

Results

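A set of 10 genes for secreted growth factors was followed in cardiac fibroblasts given Cre recombinase to delete part of Map3k7, the gene of the kinase TAK1 (TGFβ-activated kinase), or a control virus: the vascular endothelial growth factors Vegfa, Vegfb, Vegfc and Vegfd, the angiopoietin Angpt1, hepatocyte growth factor Hgf, and the EGF-type factors Hbegf, Ereg, Areg and Nrg1. They were taken by name from a table of 55414 genes, of which 25210 had at least 10 counts over all libraries and were tested, and all 10 passed that filter. The fibroblasts were taken from adult TAK1fl/fl mice on the C57BL/6J background, in which loxP sites flank exon 2 of Map3k7, and were cultured to passage 1 in serum and bFGF. All cells therefore carried the floxed alleles and an adenovirus with a CMV promoter, either ad-CMV-iCre, which expresses Cre recombinase, or the control ad-CMV-LacZ. Once starved of serum, cultures were left without ligand (CTRL) or given bFGF at 20 ng/ml, TGFβ at 10 ng/ml, IL-1β at 15 ng/ml or TNFα at 10 ng/ml for 24 h, which gave 10 groups with 4 libraries of polyadenylated RNA each.

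The sources used here give no selection for infected cells, so an iCre culture can hold cells that kept the intact gene. The study describes the 4 per group as biological replicates from male mice. Whether cultures with the same number came from the same mouse is not given in the sources used here. Total counts lay between 25360947 and 66160732 per library. All 10 fibroblast markers were detected in every library and summed to 15350 to 69710 CPM (counts relative to library size, scaled by TMM), from Col3a1 at 1544 to 33870 CPM to Tcf21 at 3.14 to 103.4 CPM. The 5 endothelial markers summed to 0.882 to 14.3 CPM, with Cdh5 up to 12.4 and Pecam1 up to 1.32 CPM, and the cardiomyocyte marker Myh6 had 3 counts in 40 libraries. Leukocyte markers summed to 16.4 to 159 CPM, with Lyz2 the highest at 8.73 to 129.8 CPM, and mural markers to 72.6 to 1921 CPM, with Rgs5 at 60.4 to 1366 CPM. The cardiomyocyte gene Tnnt2 lay between 0.271 and 110.3 CPM. Map3k7 itself, counted over all its exons so that the deleted exon was not measured apart, averaged 153.2 ± 6.51 CPM without ligand in LacZ (SD, n = 4) against 127.5 ± 4.27 CPM in iCre, and its iCre value was lower by 0.28 to 0.82 on the log2 scale over the 5 conditions.

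In 12 libraries, all of iCre fibroblasts with TGFβ, IL-1β or TNFα, transcripts rich in G and C were read relatively more often. Their slope was 0.20 to 0.34 log2 units per 10% of GC content, against -0.25 to 0.00 in the other 28 libraries. This pattern coincides with 3 whole groups and cannot be told apart from them. Ereg, Angpt1 and Hgf have the lowest GC content of the set (39.2%, 39.3% and 39.9% of the bases of the longest transcript) and Vegfb the highest (62.6%). Values with a GC correction are therefore given for part of the calls that it changed. Libraries with the same replicate number also varied together, and adjusted p-values from a fit with the replicate number as a block are given wherever the block changed a call. Some p-values of the block fit are far smaller than the spread of a gene's 4 pairs would give. They do not measure that spread, and calls made by the block fit alone are less certain. Fits without the block use all 4 replicates unless one is said to be left out. Leaving out a replicate number lost 21 of the 49 member calls at least once and gave a call in 36 comparisons that had none. Without replicate 2 no call was lost and 26 were gained, and without replicate 3 there were 20 losses and no gain.

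VEGF proteins bind receptor tyrosine kinases on endothelium. Vegfa drives the growth and leakiness of blood vessels, Vegfc and Vegfd act mainly on lymphatic vessels, and Vegfb has been tied to cardiac lipid handling and vessel survival. Angpt1 stabilises vessels through the receptor Tek, Hgf signals through Met to epithelial and endothelial cells, and the EGF-type factors are made as membrane-bound precursors that proteases release to act on Egfr and the Erbb receptors. Nrg1 signals to cardiomyocytes through Erbb4 and Erbb2. Fibroblasts of the heart are a known source of several of these factors, through which they act on their neighbours.

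Promoters are printed for 3 genes chosen among the members present in the sequence table used (RefSeq, GRCm38.p6). They are Vegfa, which had the highest level under TGFβ, and Vegfc and Areg, which differed in opposite directions between iCre and LacZ under TNFα. Angpt1 and Hbegf, which also differed under TNFα, had no promoter window there. The 250 bases before the annotated start are printed 5′ to 3′ with motif matches in capitals. They lie at chr17:46032378-46032627 on the minus strand, chr8:54077282-54077531 on the plus strand and chr5:91139349-91139598 on the plus strand.
Vegfa: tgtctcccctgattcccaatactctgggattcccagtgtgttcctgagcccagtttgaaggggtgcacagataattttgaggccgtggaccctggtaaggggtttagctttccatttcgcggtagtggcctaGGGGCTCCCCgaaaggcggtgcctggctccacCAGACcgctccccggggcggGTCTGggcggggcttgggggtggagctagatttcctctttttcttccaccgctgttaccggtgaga
Vegfc: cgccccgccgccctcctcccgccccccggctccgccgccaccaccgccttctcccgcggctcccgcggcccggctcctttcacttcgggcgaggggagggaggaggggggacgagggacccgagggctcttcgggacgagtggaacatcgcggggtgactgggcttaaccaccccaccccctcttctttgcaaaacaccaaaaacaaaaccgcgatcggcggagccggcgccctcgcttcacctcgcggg
Areg: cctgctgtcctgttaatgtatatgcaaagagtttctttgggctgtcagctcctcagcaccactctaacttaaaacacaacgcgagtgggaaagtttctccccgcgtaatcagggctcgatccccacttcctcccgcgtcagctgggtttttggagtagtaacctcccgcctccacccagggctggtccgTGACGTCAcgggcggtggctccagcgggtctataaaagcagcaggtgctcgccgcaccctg

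Promoter windows were found for 6 members (Vegfa, Vegfb, Vegfc, Vegfd, Hgf and Areg), with 2 starts each for Vegfa and Hgf. Each window was searched on both strands for an AP-1 element (TGANTCA), a cAMP response element (TGACGTCA), the hypoxia response core (ACGTG), the SMAD core (CAGAC, or GTCTG on the other strand) and the NF-κB consensus. Areg held the cAMP response element 61 bases before its start, a match present in 1.55% of 32851 windows of the same length. The Vegfa window printed above held 1 NF-κB match, 118 bases before the start, found in 7.25% of windows, and 2 SMAD cores, found in 42.19%. Its second, internal start held a hypoxia response core (16.57% of windows) and a SMAD core, and both Hgf starts held a SMAD core. The Vegfc, Vegfb and Vegfd windows held no match, nor did any member hold the AP-1 element, which 6.75% of windows did. These matches describe the letters alone.

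Per kilobase of exon, Vegfd was the most abundant member in unstimulated LacZ fibroblasts, with 229.9 ± 112 CPM per kilobase (SD, n = 4). Vegfb followed with 28.9 ± 4.85, Vegfa with 18.9 ± 2.66, Hgf with 16.5 ± 3.15 and Vegfc with 10.51 ± 2.15 CPM per kilobase. The libraries of Vegfd and of Vegfb were separate from those of the next gene, while Vegfa, Hgf and Vegfc overlapped with their neighbours. A lower tier held Ereg at 3.896 ± 0.858, Angpt1 at 3.32 ± 1.15 and Nrg1 at 2.74 ± 0.648 CPM per kilobase, and these 3 overlapped. Hbegf was at 1.60 ± 0.345. Areg, at 0.123 ± 0.129, was close to the limit of detection, with 2, 17, 2 and 5 counts in the 4 libraries. The lengths are those of all annotated exons together, and gene counts do not separate the isoforms of Vegfa, with 13 annotated transcripts, or Nrg1, with 18. Gm26578, a gene on the other strand that was not analysed here, shares 482 exon bases with Nrg1, and the strand setting of the counting is not given in the sources used here, so the level of Nrg1 is uncertain to that extent.

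**Figure D1:**
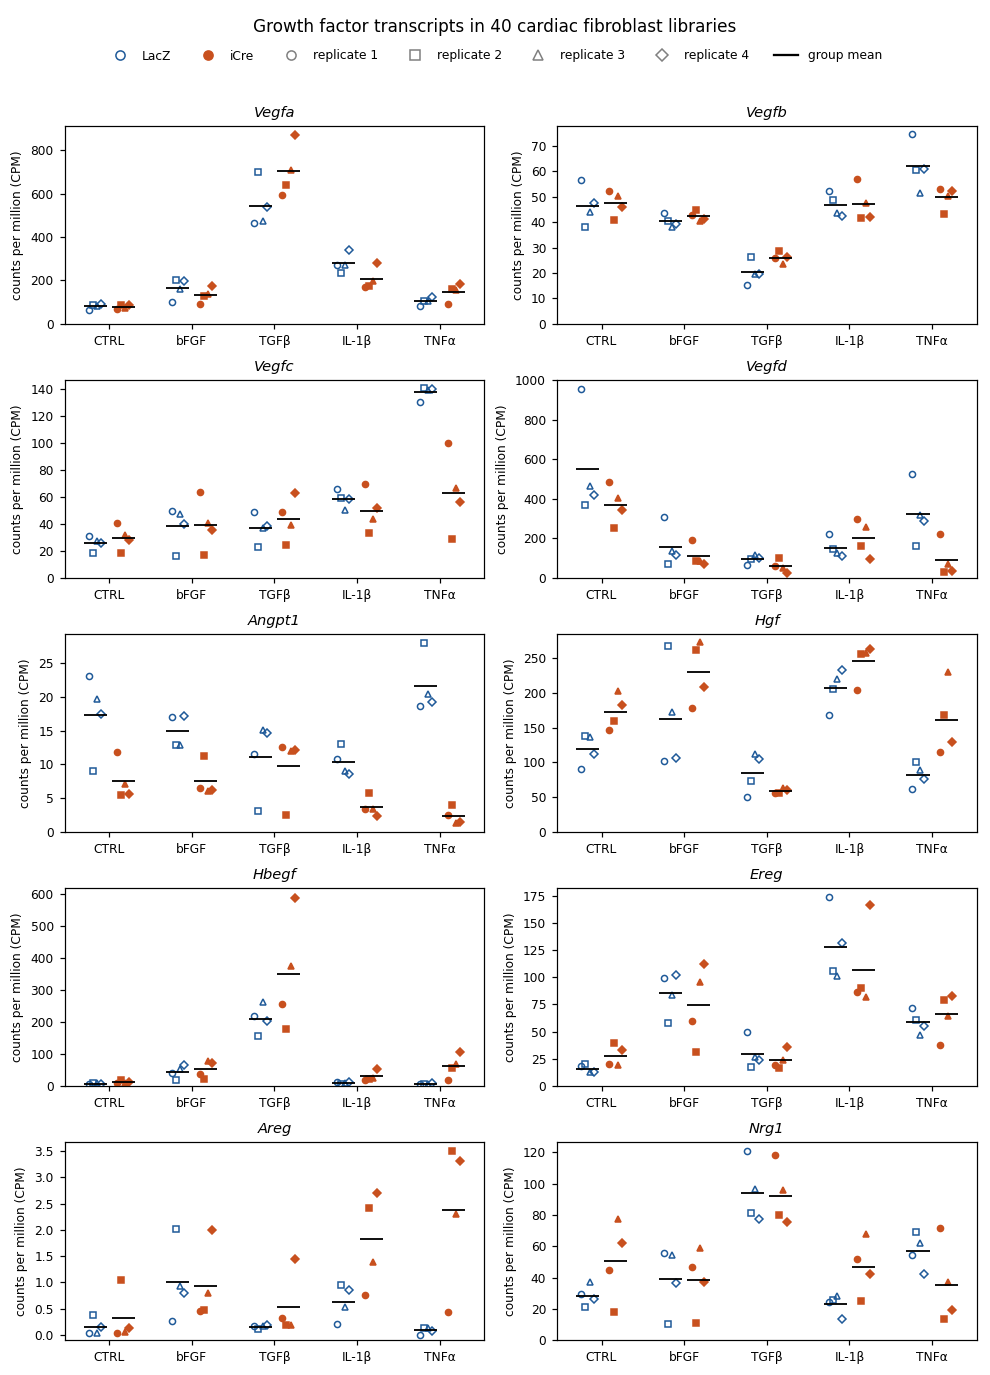
CPM of each member (vertical axis, linear) in the 5 ligand conditions (horizontal axis). Open symbols are LacZ and filled symbols iCre libraries, symbol shapes mark the replicate number and bars the group mean. Vegfa and Hbegf were highest with TGFβ, Vegfc with TNFα in LacZ, Ereg with IL-1β, and Vegfd without ligand.

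The first question was how each ligand changed these genes in LacZ fibroblasts. Tests were made with the quasi-likelihood test of edgeR on 4 libraries against 4, with p-values adjusted over all 25210 genes by the Benjamini-Hochberg procedure and a threshold of 0.05, and the 4 comparisons share the LacZ CTRL libraries. With bFGF, 5 (4 higher and 1 lower) of the 10 members passed beside 11.6% of all genes tested, and 7 (6 higher and 1 lower) beside 27.3% with the block. With TGFβ, 6 (4 higher and 2 lower) of the 10 members passed beside 36.9% of all genes tested, and 9 (5 higher and 4 lower) beside 42.0% with the block. With IL-1β, 5 (4 higher and 1 lower) of the 10 members passed beside 20.7% of all genes tested, and 9 (6 higher and 3 lower) beside 33.5% with the block. With TNFα, 3 (3 higher and 0 lower) of the 10 members passed beside 21.3% of all genes tested, and 7 (5 higher and 2 lower) beside 35.5% with the block. The members' median log2 fold changes were 0.53, 0.32, 0.67 and 0.34 in that order, beside -0.03, -0.17, -0.10 and -0.08 over all genes. Without the block, Vegfa, Hbegf, Ereg and Areg rose and Vegfd fell with bFGF. With TGFβ, Vegfa, Hbegf, Ereg and Nrg1 rose and Vegfb and Vegfd fell. With IL-1β, Vegfa, Vegfc, Hgf and Ereg rose and Vegfd fell, and with TNFα, Vegfc, Ereg and Nrg1 rose.

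The same ligands were then compared with CTRL in iCre fibroblasts. For bFGF, 2 (1 higher and 1 lower) of the 10 members passed beside 2.42% of all genes tested, and 7 (5 higher and 2 lower) beside 16.7% with the block. For TGFβ, 5 (2 higher and 3 lower) of the 10 members passed beside 37.4% of all genes tested, and 7 (4 higher and 3 lower) beside 41.5% with the block. For IL-1β, 4 (4 higher and 0 lower) of the 10 members passed beside 16.3% of all genes tested, and 8 (6 higher and 2 lower) beside 33.8% with the block. For TNFα, 7 (5 higher and 2 lower) of the 10 members passed beside 27.0% of all genes tested, and 7 (5 higher and 2 lower) beside 36.1% with the block. Here the median log2 fold changes of the members were 0.42, 0.50, 0.65 and 0.52 in that order, beside 0.00, -0.11, 0.00 and -0.04 over all genes. Under TNFα, Vegfa, Vegfc, Hbegf, Ereg and Areg rose and Vegfd and Angpt1 fell, 7 members in all, beside the 3 called in LacZ. The corresponding counts were 7 and 7 with the block, 7 and 5 with DESeq2, and 1 and 3 without replicate 3, and their difference was not tested.

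The 33 cell type markers tested also moved with the ligands. In LacZ bFGF moved 4, TGFβ 11, IL-1β 8 and TNFα 5 (12.1%, 33.3%, 24.2% and 15.2%, beside 11.6%, 36.9%, 20.7% and 21.3% of all genes tested). With the block these were 14, 16, 20 and 16 (42.4%, 48.5%, 60.6% and 48.5%, beside 27.3%, 42.0%, 33.5% and 35.5%). In iCre, in the same order, 1, 13, 0 and 8 passed (3.0%, 39.4%, 0.0% and 24.2%, beside 2.42%, 37.4%, 16.3% and 27.0%), and with the block 13, 19, 15 and 22 (39.4%, 57.6%, 45.5% and 66.7%, beside 16.7%, 41.5%, 33.8% and 36.1%). For IL-1β in iCre, where edgeR called 0, 5 markers had an unadjusted p under 0.05 and DESeq2 called 1. The mural markers summed to 662.9 to 1169 CPM with TGFβ in LacZ, above the 108.1 to 559 CPM of CTRL, with 1 of 5 called higher and 2 lower. The cardiomyocyte markers summed to 0.543 to 1.89 CPM with IL-1β in LacZ, below the 14.9 to 110.6 CPM of CTRL, with 1 of 3 called lower. Fibroblast markers summed to 57150 to 66620 CPM with TGFβ in LacZ, above the 30430 to 47670 CPM of CTRL, with 3 of 10 called higher and 3 lower. The part of these shifts in the ligand responses of the members was not tested.

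The next comparison was of iCre with LacZ fibroblasts under each condition. Without ligand, none of the 10 members passed beside 0.0754% of all genes tested, and 6 (4 higher and 2 lower) beside 14.5% with the block. Under bFGF, none of the 10 members passed beside 0.0% of all genes tested, and 4 (1 higher and 3 lower) beside 13.9% with the block. Under TGFβ, none of the 10 members passed beside 8.37% of all genes tested, and 5 (3 higher and 2 lower) beside 20.8% with the block. Under IL-1β, 3 (2 higher and 1 lower) of the 10 members passed beside 16.1% of all genes tested, and 7 (4 higher and 3 lower) beside 29.5% with the block. Under TNFα, 5 (3 higher and 2 lower) of the 10 members passed beside 27.3% of all genes tested, and 8 (4 higher and 4 lower) beside 32.2% with the block. In these 5 comparisons the medians over the members were 0.36, -0.09, 0.08, 0.11 and -0.06 in that order, beside -0.03, 0.00, 0.00, 0.04 and 0.00 over all genes. A count of 0 members in the first 3 conditions stood beside 3, 1 and 3 members with an unadjusted p under 0.05 in the edgeR test, and DESeq2 called 3, 1 and 0. Over all genes under bFGF, where edgeR called none, 2585 had an unadjusted p under 0.05.

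Whether a ligand's change differed between iCre and LacZ was tested as an interaction over 16 libraries. In the bFGF interaction, none of the 10 members passed beside 0.0% of all genes tested, and none beside 0.0% with the block. In the TGFβ interaction, 1 (0 higher and 1 lower) of the 10 members passed beside 4.51% of all genes tested, and 1 (0 higher and 1 lower) beside 8.04% with the block. In the IL-1β interaction, none of the 10 members passed beside 7.71% of all genes tested, and 3 (1 higher and 2 lower) beside 16.9% with the block. In the TNFα interaction, 3 (1 higher and 2 lower) of the 10 members passed beside 16.1% of all genes tested, and 7 (3 higher and 4 lower) beside 25.1% with the block. For the interactions the medians over the members were -0.22, 0.09, -0.15 and -0.47 in that order, beside 0.03, 0.04, 0.08 and 0.05 over all genes. For bFGF and for IL-1β 1 member, Ereg, had an unadjusted p under 0.05, and DESeq2 called 0 and 1 members. Over all genes 765 reached this level in the bFGF interaction. The 4 interactions called without the block were those of Hgf with TGFβ and of Vegfc, Angpt1 and Hbegf with TNFα. In a fit to all 40 libraries those of Hgf and Vegfc did not pass (adjusted p = 0.0555 and 0.0572), while those of Angpt1 and Hbegf did (adjusted p = 0.0142 and 0.00384).

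**Figure D2:**
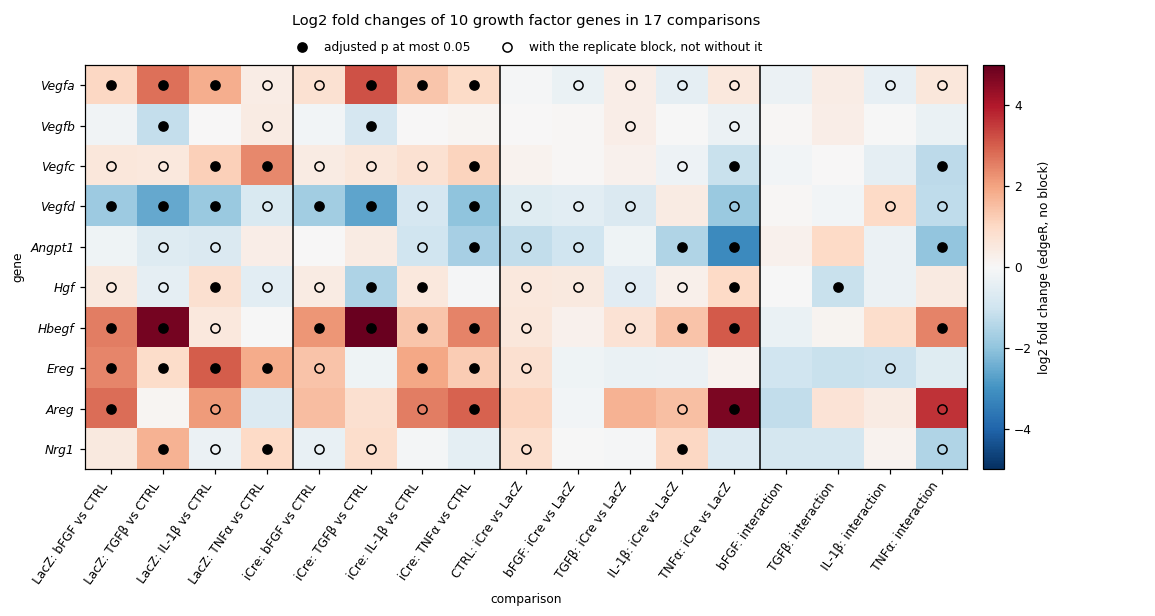
Log2 fold changes of the 10 members (rows) in the 17 comparisons (columns), coloured from -5 to 5. Filled circles mark an adjusted p of at most 0.05 without the block, open circles a call with the replicate block but not without it. Hbegf under TGFβ had the highest values among the ligand comparisons (4.78 in LacZ and 4.95 in iCre), and the iCre against LacZ differences were greatest under TNFα for Angpt1, Hbegf and Areg.

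Vegfa rose with TGFβ in both kinds of fibroblast. In LacZ fibroblasts it lay at 64.8, 86.7, 81.04 and 90.7 CPM in replicates 1 to 4 of CTRL and at 466, 699, 476 and 539.7 CPM with TGFβ (log2 fold change 2.77, SE 0.16, adjusted p = 1.71e-06). In iCre fibroblasts the values were 66.9, 85.5, 75.5 and 88.6 CPM and 592, 639.5, 709.8 and 871 CPM (log2 fold change 3.17, SE 0.15, adjusted p = 5.32e-07). CTRL and TGFβ libraries were far apart in each case, and both TGFβ groups lay above every library of the other 8 groups. IL-1β raised Vegfa to 269.8, 235, 271 and 342 CPM in LacZ (log2 fold change 1.80, SE 0.14, adjusted p = 2.81e-05) and to 170.1, 176, 198 and 280.5 CPM in iCre (log2 fold change 1.40, SE 0.17, adjusted p = 0.000712). Here too no library overlapped with CTRL. bFGF gave 98.95, 202, 159 and 199.7 CPM in LacZ (log2 fold change 1.05, SE 0.21, adjusted p = 0.0125), a call lost without replicate 3 or 4 (adjusted p = 0.103 without replicate 3 and 0.0888 without replicate 4).

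With bFGF in iCre fibroblasts Vegfa was at 90.3, 126, 138 and 172 CPM (log2 fold change 0.75, SE 0.18, adjusted p = 0.0641, and 2.42e-05 with the block). TNFα raised it in iCre fibroblasts to 91.2, 162, 157 and 186 CPM (log2 fold change 0.95, SE 0.20, adjusted p = 0.00565), with adjusted p = 0.0569 without replicate 3. In LacZ with TNFα it lay at 81.1, 107, 104 and 124 CPM (log2 fold change 0.37, SE 0.14, adjusted p = 0.089), and with the block the adjusted p was 6.38e-05. Without the block this response was called in iCre alone, and with the block in both. The difference between iCre and LacZ within TNFα was 0.54 on the log2 scale (adjusted p = 0.0778, 0.00322 with the block), and iCre was higher in 4 of 4 replicate pairs. Under IL-1β the difference had the opposite sign, -0.45 (adjusted p = 0.109, 0.000153 with the block), and iCre was lower in 4 of 4 pairs. The interactions passed with the block but not without it, at 0.54 for TNFα (adjusted p = 0.00393, and 0.00772 without the block when replicate 1 was left out) and -0.43 for IL-1β (adjusted p = 0.0297). Without ligand Vegfa did not pass between iCre and LacZ in either fit, with a log2 difference of -0.04 and SE 0.12. Under bFGF it was -0.32 and under TGFβ 0.34, and both passed with the block but not without it (adjusted p = 0.0172 and 0.021). With a GC correction the TGFβ value was 0.27 (adjusted p = 0.12).

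Vegfb, on chromosome 19, varied least among the 10 members, with its highest group mean 3.05 times its lowest. It fell with TGFβ, from 56.5, 37.9, 44.01 and 47.4 CPM to 15.3, 26.4, 19.6 and 19.7 CPM in LacZ (log2 fold change -1.18, SE 0.17, adjusted p = 0.000384). In iCre fibroblasts it fell from 52.4, 40.95, 50.3 and 45.9 CPM to 25.8, 28.4, 23.7 and 26.4 CPM (log2 fold change -0.84, SE 0.10, adjusted p = 9.19e-05). No TGFβ library overlapped with any of the other groups. With TNFα in LacZ it lay at 74.7, 60.4, 51.3 and 60.99 CPM (log2 fold change 0.41, SE 0.15, adjusted p = 0.0734, 0.000178 with the block). In the other ligand comparisons its group means stayed between 40.3 and 49.7 CPM and passed in neither fit. With block and GC correction IL-1β in iCre gave -0.17 (adjusted p = 0.049) and the TNFα interaction -0.56 (adjusted p = 0.00135). As the member with the highest GC content, Vegfb moved most downward with the GC correction between iCre and LacZ. Its log2 difference under TGFβ was 0.36 with the block (adjusted p = 0.0189) and 0.04 with block and correction (adjusted p = 0.923). Under IL-1β these values were -0.01 (adjusted p = 0.962) and -0.29 (adjusted p = 0.00759), and under TNFα -0.29 (adjusted p = 0.0498) and -0.57 (adjusted p = 0.00106).

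Vegfc, a lymphatic growth factor on chromosome 8, responded to TNFα in LacZ fibroblasts more than in iCre fibroblasts. In LacZ it rose from 31.1, 18.6, 27.4 and 25.8 CPM to 130.5, 140.4, 139 and 140.3 CPM (log2 fold change 2.42, SE 0.15, adjusted p = 8.1e-06). In iCre it lay at 40.6, 18.3, 31.6 and 27.8 CPM without ligand and at 99.7, 29.2, 66.3 and 56.5 CPM with TNFα (log2 fold change 1.12, SE 0.35, adjusted p = 0.0366). The LacZ TNFα libraries were nearly equal and stood above every other library, whereas the iCre TNFα libraries spread from 29.2 to 99.7 CPM and overlapped with iCre CTRL. The iCre call was lost without replicates 1, 3 or 4 (adjusted p = 0.0506 without replicate 1, 0.148 without replicate 3 and 0.138 without replicate 4).

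Within TNFα, Vegfc was lower in iCre in 4 of 4 pairs, with no overlap (log2 fold change -1.11, SE 0.29, adjusted p = 0.0178). The interaction was -1.31 (SE 0.41, adjusted p = 0.0391, 0.000925 with the block). Without the block both were lost when replicate 3 or 4 was left out, the difference with adjusted p = 0.0938 without replicate 3 and 0.104 without replicate 4, the interaction with adjusted p = 0.199 without replicate 3 and 0.212 without replicate 4. IL-1β raised Vegfc in LacZ fibroblasts to 65.9, 59.3, 50.5 and 58.7 CPM (log2 fold change 1.196, SE 0.16, adjusted p = 0.000688), without overlap with CTRL. In iCre fibroblasts IL-1β gave 69.7, 33.05, 43.9 and 52.2 CPM (log2 fold change 0.77, SE 0.27, adjusted p = 0.081, 9.42e-17 with the block). For bFGF and TGFβ the log2 values were 0.59 and 0.53 in LacZ and 0.42 and 0.59 in iCre, called with the block but not without it (adjusted p = 0.00661, 0.000679, 0.0394 and 0.00434). When replicate 2 was left out, 3 of these 4 passed without the block (adjusted p = 0.00249, 0.00446 and 0.0141), the exception being bFGF in iCre. Between iCre and LacZ under IL-1β the value of -0.25 was called with the block but not without it (adjusted p = 0.0475), and with the GC correction it was -0.11 (adjusted p = 0.611).

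Vegfd, an X-linked member that also acts on lymphatic vessels, was highest without ligand and lower with every ligand. It lay at 955, 371, 466 and 422 CPM in LacZ CTRL, where replicate 1 stood above the others. TGFβ lowered it to 63.9, 97.5, 114 and 101 CPM (log2 fold change -2.55, SE 0.31, adjusted p = 0.000119). IL-1β gave 222, 144, 125 and 112 CPM (log2 fold change -1.87, SE 0.32, adjusted p = 0.00295) and bFGF 306, 68.4, 139 and 116 CPM (log2 fold change -1.80, SE 0.45, adjusted p = 0.0303). None of these 3 groups overlapped with CTRL, but the bFGF call was lost without replicate 3 or 4 (adjusted p = 0.165 without replicate 3 and 0.152 without replicate 4). With TNFα the values were 528, 163, 318 and 289 CPM (log2 fold change -0.77, SE 0.38, adjusted p = 0.194), and the block gave an adjusted p of 3.16e-07.

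In iCre fibroblasts Vegfd started at 486, 252, 406 and 342 CPM. It fell with TGFβ to 58.6, 100.4, 50.02 and 25.4 CPM (log2 fold change -2.65, SE 0.37, adjusted p = 0.00023) and with bFGF to 193, 85.6, 86.8 and 72.4 CPM (log2 fold change -1.75, SE 0.32, adjusted p = 0.0279). The bFGF call was lost without replicates 1, 3 or 4 (adjusted p = 0.0565 without replicate 1, 0.282 without replicate 3 and 0.169 without replicate 4). TNFα lowered it to 223, 28.5, 69.2 and 35.3 CPM (log2 fold change -2.02, SE 0.59, adjusted p = 0.0298), lost without replicate 3 or 4 (adjusted p = 0.151 without replicate 3 and 0.109 without replicate 4). IL-1β left 299, 163, 259.5 and 95.4 CPM (log2 fold change -0.84, SE 0.33, adjusted p = 0.116, 1.78e-19 with the block). Within TNFα the libraries of iCre and LacZ overlapped, yet each iCre library was below its LacZ pair (log2 fold change -1.84, SE 0.63, adjusted p = 0.0568, 0.000273 with the block). This difference also passed without the block when replicate 1 or 2 was left out. With the block the TNFα interaction was -1.65 (adjusted p = 0.0028) and the IL-1β interaction 0.88 (adjusted p = 0.0185), so that the sign of the difference in response was opposite for the 2 ligands. Without the block these were -1.27 (adjusted p = 0.31, though 0.00655 without replicate 1) and 1.01 (adjusted p = 0.286). The log2 differences of Vegfd between iCre and LacZ were also negative without ligand (-0.59), with bFGF (-0.52) and with TGFβ (-0.71), each called with the block but not without it (adjusted p = 0.00136, 0.0147 and 0.00748).

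Angpt1, the vessel-stabilising ligand of Tek, had the lowest log2 value of the 10 members in iCre relative to LacZ under TNFα, IL-1β and bFGF and without ligand, but not under TGFβ. Under TNFα it lay at 18.6, 27.96, 20.4 and 19.3 CPM in LacZ and at 2.52, 4.07, 1.30 and 1.49 CPM in iCre (log2 fold change -3.18, SE 0.35, adjusted p = 0.000275). Under IL-1β the values were 10.8, 13.03, 9.08 and 8.63 CPM and 3.44, 5.75, 3.35 and 2.33 CPM (log2 fold change -1.497, SE 0.26, adjusted p = 0.00334). Neither comparison had overlapping libraries, and both calls held without each replicate number in turn. Without ligand Angpt1 was at 23.04, 9.05, 19.6 and 17.4 CPM in LacZ against 11.8, 5.48, 7.04 and 5.70 CPM in iCre (log2 fold change -1.22, SE 0.32, adjusted p = 0.143, 1.06e-05 with the block). With bFGF it was at 16.98, 12.8, 12.8 and 17.1 CPM and 6.46, 11.2, 6.14 and 6.24 CPM (log2 fold change -0.99, SE 0.22, adjusted p = 0.261, 0.0001 with the block). Each iCre library was below its LacZ pair in these 4 conditions.

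Angpt1 is poor in G and C, and the GC correction raised its iCre values. With block and correction the log2 difference was -2.70 under TNFα (adjusted p = 3.11e-05) and -0.94 under IL-1β (adjusted p = 3.42e-05), so both calls remained. Under TGFβ, where LacZ lay at 11.6, 3.06, 15.1 and 14.6 CPM and iCre at 12.6, 2.55, 12.02 and 12.1 CPM, the difference was -0.21 (adjusted p = 0.897), -0.21 with the block (adjusted p = 0.313) and 0.41 with the correction as well (adjusted p = 0.047), a change of sign. Angpt1 fell with TNFα in iCre fibroblasts (log2 fold change -1.64, SE 0.39, adjusted p = 0.0115), with an adjusted p of 0.0672 without replicate 3. In LacZ with TNFα its log2 value was 0.32 (adjusted p = 0.433). The interaction was -1.97 (SE 0.50, adjusted p = 0.0118), with adjusted p = 0.0936 without replicate 3 and 0.0774 without replicate 4, and -1.45 (adjusted p = 0.0274) with block and GC correction. For TGFβ the interaction was 1.01 (adjusted p = 0.546, 0.135 with the block), and it passed with block and correction at 1.52 (adjusted p = 0.0349). IL-1β gave log2 values of -0.73 in LacZ and -0.996 in iCre, called with the block but not without it (adjusted p = 0.00136 and 2.15e-09), as was TGFβ in LacZ at -0.63 (adjusted p = 0.00645). In iCre with IL-1β 1 of 4 replicate pairs rose, so the block p-value there does not measure the spread of the pairs. An antisense gene, Gm17473, shares 737 exon bases with Angpt1, and the strand setting of the counting is not given in the sources used here. A decrease in bulk RNA cannot tell fewer expressing cells from less RNA per cell, for this gene or the others.

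Hgf, the ligand of Met, was higher in iCre than in LacZ under TNFα. Under TNFα it lay at 61.8, 101, 89.2 and 76.6 CPM in LacZ against 115, 167, 229 and 129 CPM in iCre, without overlap (log2 fold change 0.98, SE 0.22, adjusted p = 0.00849). That call held without each replicate number in turn, and with block and GC correction the difference was 1.49 (adjusted p = 7.92e-05). Without ligand the values were 89.8, 137, 136 and 112 CPM and 146, 160.0, 202 and 183 CPM, again without overlap, but the difference passed with the block but not without it (log2 fold change 0.53, SE 0.15, adjusted p = 0.158, 0.000131 with the block). The interaction for TNFα was 0.45 (adjusted p = 0.35, 0.0828 with the block), and 0.88 (adjusted p = 0.00153) with block and correction. Under bFGF the iCre against LacZ value was 0.50 and under IL-1β 0.23, both called with the block but not without it (adjusted p = 0.000601 and 0.0189), and the correction raised the IL-1β value to 0.79.

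TGFβ lowered Hgf in iCre fibroblasts to 55.7, 56.3, 62.6 and 59.7 CPM (log2 fold change -1.54, SE 0.11, adjusted p = 2.89e-06). In LacZ it lay at 50.2, 73.5, 113 and 105 CPM with TGFβ (log2 fold change -0.46, SE 0.23, adjusted p = 0.145, 0.00649 with the block). The interaction passed (-1.11, SE 0.27, adjusted p = 0.0279) and was lost without replicate 3 or 4 (adjusted p = 0.218 without replicate 3 and 0.305 without replicate 4). With block and GC correction it was -0.54 and did not pass (adjusted p = 0.132). The iCre against LacZ difference under TGFβ went from -0.51 with the block (adjusted p = 0.00422) to 0.06 (adjusted p = 0.889). The fall within iCre remained called with the correction, at -1.06 (adjusted p = 5.43e-07). IL-1β raised Hgf in LacZ to 168, 205, 219.8 and 233 CPM (log2 fold change 0.81, SE 0.15, adjusted p = 0.00345) and in iCre to 204, 256, 258 and 263 CPM (log2 fold change 0.52, SE 0.12, adjusted p = 0.0149), the latter with adjusted p = 0.0721 without replicate 4. All 4 libraries were above CTRL in each case. With bFGF the values were 102, 268, 172 and 106 CPM in LacZ against 178, 262, 273 and 208 CPM in iCre, above CTRL by a log2 value of 0.47 and 0.42 and called with the block but not without it (adjusted p = 0.0362 and 0.00229). TNFα in LacZ was also called with the block but not without it (-0.53, adjusted p = 9.33e-07). A second annotated gene, Gm43489, shares 484 exon bases with Hgf on its strand, and how reads in the shared part were assigned is not given in the sources used here.

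**Figure D3:**
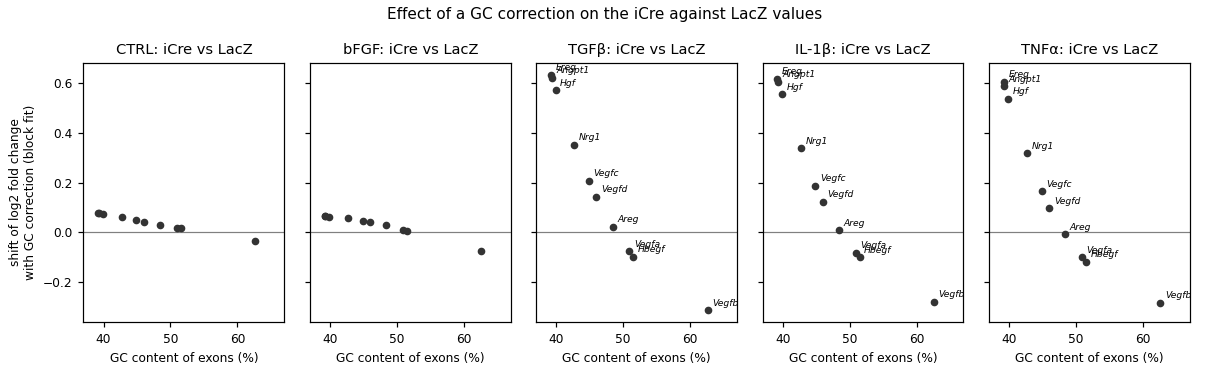
Shift of the iCre against LacZ log2 fold change when a GC correction was added to the block fit (vertical axis) against GC content in percent (horizontal axis), 1 point per member and 1 panel per condition, with gene names in the TGFβ, IL-1β and TNFα panels. The GC content is that of the longest transcript of each gene, although the axis names exons. Under TGFβ, IL-1β and TNFα the shift fell with GC content, from Ereg, Angpt1 and Hgf (above 0.5) to Vegfb (below -0.2), and it was below 0.1 in size without ligand and with bFGF.

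Hbegf, heparin-binding EGF-like growth factor, had the greatest log2 changes of the set in the ligand comparisons. In LacZ it lay at 6.79, 9.77, 8.41 and 6.04 CPM without ligand and at 219, 158, 262 and 202 CPM with TGFβ (log2 fold change 4.78, SE 0.20, adjusted p = 6.43e-07). In iCre it lay at 8.18, 17.8, 8.73 and 11.4 CPM and 257, 179, 375 and 590.2 CPM (log2 fold change 4.95, SE 0.41, adjusted p = 8.41e-06). The TGFβ libraries stood above all other libraries of both viruses, and the interaction did not pass (0.15, SE 0.44, adjusted p = 0.975). bFGF raised Hbegf to 42.04, 17.8, 52.98 and 66.3 CPM in LacZ (log2 fold change 2.55, SE 0.35, adjusted p = 0.0024) and to 38.5, 20.9, 78.2 and 73.3 CPM in iCre (log2 fold change 2.21, SE 0.42, adjusted p = 0.0295). The iCre call was lost without replicates 1, 3 or 4 (adjusted p = 0.161 without replicate 1, 0.283 without replicate 3 and 0.209 without replicate 4).

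TNFα separated iCre from LacZ for Hbegf. With TNFα the LacZ libraries were at 6.78, 7.86, 7.66 and 8.30 CPM, overlapping with CTRL (log2 fold change -0.02, SE 0.16, adjusted p = 0.963). The iCre libraries were at 19.9, 56.5, 68.2 and 106 CPM, all above CTRL (log2 fold change 2.47, SE 0.45, adjusted p = 0.00285). Within TNFα iCre was higher in 4 of 4 pairs without overlap (log2 fold change 3.05, SE 0.41, adjusted p = 0.000657), and the call held without each replicate number in turn. The interaction was 2.49 (SE 0.51, adjusted p = 0.00332), with adjusted p = 0.0738 without replicate 3. IL-1β gave 12.9, 6.46, 10.7 and 14.1 CPM in LacZ (log2 fold change 0.52, SE 0.24, adjusted p = 0.155, 0.02 with the block) and 20.1, 22.7, 23.7 and 53.7 CPM in iCre (log2 fold change 1.40, SE 0.35, adjusted p = 0.0215), the iCre call with adjusted p = 0.0697 without replicate 1, 0.0961 without replicate 3 and 0.0823 without replicate 4. Under IL-1β the lowest iCre library was above the highest LacZ library (log2 fold change 1.43, SE 0.34, adjusted p = 0.0166), with adjusted p = 0.0814 without replicate 3. The IL-1β interaction did not pass, at 0.87 (adjusted p = 0.315). Without ligand and with TGFβ the iCre against LacZ values were 0.56 and 0.71, called with the block but not without it (adjusted p = 0.0192 and 0.00707).

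Marker genes of several cell types also differed between iCre and LacZ under TNFα. Of 33 markers tested, 12 passed (36.4%, beside 27.3% of all genes tested) and 18 with the block (54.5%, beside 32.2%). Of 10 fibroblast markers 5 were lower and 2 higher in iCre (7 and 2 with the block), and their sums were 15350 to 23390 CPM in iCre beside 25800 to 34600 CPM in LacZ. Of 5 mural markers 3 were higher (3 with the block), with sums of 302.8 to 1156 CPM beside 72.6 to 369 CPM. Among 6 leukocyte markers 1 was higher, and with the block 2 were lower as well, with overlapping sums of 34.3 to 115.4 CPM beside 41.0 to 156.6 CPM. Of 3 cardiomyocyte markers tested 1 was higher (1 with the block). No endothelial marker of 5 passed without the block and 1 was higher with it (2.49 to 14.3 CPM beside 0.882 to 4.75 CPM), and of 4 mesothelial markers none passed without the block and 1 was lower with it.

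Under IL-1β 7 of the 33 markers passed (21.2%, beside 16.1% of all genes) and 23 with the block (69.7%, beside 29.5%). Without the block 3 fibroblast markers and 1 endothelial marker were lower in iCre, and 2 mural markers and 1 cardiomyocyte marker were higher. With the block 7 fibroblast, 4 leukocyte and 1 endothelial markers were lower, and 3 mural, 3 mesothelial, 2 cardiomyocyte, 1 fibroblast, 1 leukocyte and 1 endothelial markers were higher. The fibroblast sums were 22850 to 35690 CPM in iCre beside 36620 to 69710 CPM in LacZ. Under TGFβ 4 markers passed (12.1%, beside 8.37%) and 9 with the block (27.3%, beside 20.8%). Without ligand and with bFGF no marker passed in the edgeR test without the block, 11 and 5 having an unadjusted p under 0.05, and DESeq2 called 3 and 0. With the block 17 passed without ligand (51.5%, beside 14.5%), of which 7 fibroblast, 3 leukocyte, 1 mural and 1 cardiomyocyte markers were lower in iCre, and 2 fibroblast, 2 mural and 1 cardiomyocyte markers were higher. With bFGF 12 passed with the block (36.4%, beside 13.9%), of which 5 fibroblast, 2 leukocyte and 1 cardiomyocyte markers were lower, and 2 mural, 1 cardiomyocyte and 1 mesothelial markers were higher. The part of these shifts in the differences of the members between iCre and LacZ was not tested.

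**Figure D4:**
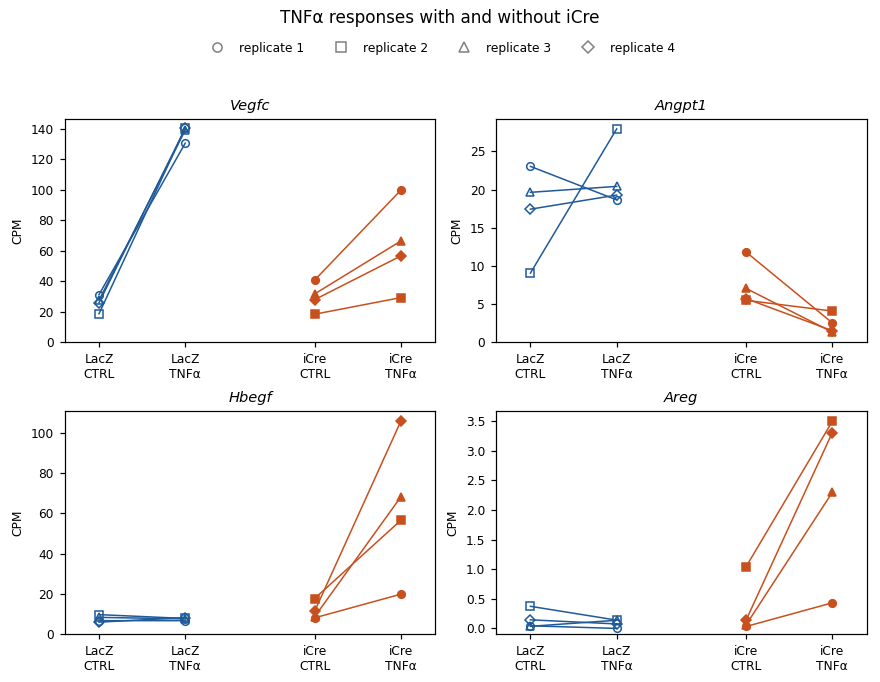
CPM (vertical axis, linear) of Vegfc, Angpt1, Hbegf and Areg without ligand and with TNFα (horizontal axis). Lines join libraries of the same virus and replicate number, with open blue symbols for LacZ and filled orange symbols for iCre. Vegfc rises steeply in LacZ and less in iCre, Angpt1 falls in iCre, and Hbegf and Areg rise in iCre and stay near CTRL in LacZ.

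Ereg, epiregulin, was raised by most ligands, and by IL-1β most of all. In LacZ it rose from 18.2, 19.96, 13.4 and 12.8 CPM to 174, 106, 101 and 131 CPM with IL-1β (log2 fold change 3.01, SE 0.21, adjusted p = 1.22e-05). bFGF gave 98.9, 58.3, 83.6 and 102 CPM (log2 fold change 2.43, SE 0.21, adjusted p = 0.000413) and TNFα 71.8, 61.02, 46.9 and 55.3 CPM (log2 fold change 1.87, SE 0.17, adjusted p = 8.97e-05). None of these libraries overlapped with CTRL, and all 3 calls held without each replicate number in turn. With TGFβ the values were 49.6, 17.8, 26.9 and 24.2 CPM (log2 fold change 0.91, SE 0.29, adjusted p = 0.0323), overlapping with CTRL, and the call was lost without replicates 1, 3 or 4 (adjusted p = 0.0634 without replicate 1, 0.118 without replicate 3 and 0.0942 without replicate 4).

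In iCre fibroblasts Ereg started at 20.1, 40.00, 19.02 and 33.1 CPM and rose with IL-1β to 86.5, 90.4, 81.7 and 167 CPM (log2 fold change 1.94, SE 0.30, adjusted p = 0.0024). TNFα raised it to 37.8, 78.7, 64.4 and 82.6 CPM (log2 fold change 1.27, SE 0.30, adjusted p = 0.0102), with adjusted p = 0.0683 without replicate 3 and 0.0572 without replicate 4. With bFGF it lay at 59.8, 31.02, 95.4 and 112 CPM (log2 fold change 1.42, SE 0.39, adjusted p = 0.0941, 0.00261 with the block) and with TGFβ at 19.8, 16.2, 24.2 and 36.3 CPM (log2 fold change -0.20, SE 0.29, adjusted p = 0.633). The interactions were negative for all 4 ligands, from -1.13 with TGFβ to -0.62 with TNFα, and that of IL-1β passed with the block (-1.06, adjusted p = 0.0196) but not with block and GC correction (-0.53, adjusted p = 0.342). Without ligand Ereg was higher in iCre in 4 of 4 pairs (log2 fold change 0.79, SE 0.25, adjusted p = 0.209, 0.00176 with the block). Under TNFα the iCre against LacZ value was 0.18 (adjusted p = 0.596), and it passed with block and correction (0.75, adjusted p = 0.0402). Gm19610, an antisense gene, shares 141 exon bases with Ereg.

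Areg, amphiregulin, lies downstream of Ereg on chromosome 5 and reached 3.497 CPM at most in any library. With TNFα the LacZ libraries held 0, 4, 5 and 2 counts and the iCre libraries 17, 147, 118 and 102 counts. These correspond to 0, 0.1398, 0.138 and 0.0758 CPM and 0.432, 3.497, 2.30 and 3.31 CPM, without overlap (log2 fold change 4.69, SE 0.79, adjusted p = 0.00202), and the call held without each replicate number in turn. A count of 0 allows up to 0.113 CPM (3 counts at the lowest depth), so the fitted fold change rests on few reads. CTRL had 2, 17, 2 and 5 counts in LacZ and 1, 34, 3 and 4 counts in iCre, and replicate 2 was the highest in both. TNFα raised Areg in iCre fibroblasts (log2 fold change 2.95, SE 0.96, adjusted p = 0.0464), with adjusted p = 0.178 without replicate 3 and 0.208 without replicate 4, while LacZ with TNFα did not pass (-0.69, SE 0.92, adjusted p = 0.648). The interaction was 3.62 (SE 1.47, adjusted p = 0.114, 0.00385 with the block).

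bFGF raised Areg in LacZ to 8, 80, 42 and 27 counts (log2 fold change 2.78, SE 0.78, adjusted p = 0.0455), with adjusted p = 0.0728 without replicate 1, 0.209 without replicate 3 and 0.189 without replicate 4. In iCre it gave 16, 35, 26 and 59 counts (log2 fold change 1.55, SE 0.93, adjusted p = 0.445). With IL-1β there were 6, 35, 15 and 34 counts in LacZ (log2 fold change 2.11, SE 0.72, adjusted p = 0.0644, 0.000362 with the block) and 41, 133, 81 and 101 counts in iCre (log2 fold change 2.54, SE 0.86, adjusted p = 0.0739, 6.58e-14 with the block). Each iCre library was above its LacZ pair under IL-1β (log2 fold change 1.49, SE 0.50, adjusted p = 0.0711, 0.00011 with the block). With TGFβ the counts were 6, 5, 6 and 5 in LacZ and 10, 5, 5 and 52 in iCre, and neither change passed with or without the block, while the iCre change passed without replicate 2 (adjusted p = 0.013). The highest group mean of Areg was with TNFα in iCre, that of its neighbour Ereg with IL-1β in LacZ.

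Nrg1, neuregulin, which signals to cardiomyocytes, was highest with TGFβ. In LacZ it rose from 29.2, 21.1, 37.1 and 26.03 CPM to 121, 81.1, 96.7 and 77.6 CPM (log2 fold change 1.75, SE 0.20, adjusted p = 8.54e-05), without overlap. In iCre it lay at 45.1, 17.7, 77.6 and 61.9 CPM and 118, 79.8, 95.9 and 75.3 CPM (log2 fold change 0.89, SE 0.36, adjusted p = 0.0764, 0.00411 with the block). With TGFβ each iCre library was slightly below its LacZ pair, and the groups overlapped. TNFα raised Nrg1 in LacZ to 54.7, 69.3, 62.2 and 42.2 CPM (log2 fold change 1.01, SE 0.19, adjusted p = 0.00505), and this call held without each replicate number in turn. In iCre with TNFα it spread over 71.4, 13.5, 37.2 and 18.97 CPM (log2 fold change -0.48, SE 0.54, adjusted p = 0.551). The TNFα interaction passed with the block (-1.68, adjusted p = 0.028), but neither without it (-1.51, adjusted p = 0.134, though 0.0478 without replicate 1) nor with block and GC correction (-1.43, adjusted p = 0.0658). Under IL-1β iCre was above LacZ in 3 of 4 pairs, with 24.5, 25.4, 28.4 and 13.5 CPM in LacZ against 51.9, 25.2, 68.05 and 42.3 CPM in iCre (log2 fold change 1.02, SE 0.30, adjusted p = 0.0428), and the call was lost without replicates 1, 3 or 4 (adjusted p = 0.128 without replicate 1, 0.145 without replicate 3 and 0.129 without replicate 4). Without ligand the value was 0.82 (adjusted p = 0.359, 0.00745 with the block). Under TGFβ it was -0.06 with the block (adjusted p = 0.733) and 0.29 with the GC correction as well (adjusted p = 0.0126), a change of sign. With bFGF the log2 values were 0.48 in LacZ and -0.39 in iCre. The iCre value passed with the block (adjusted p = 0.0114) but not without it, and the LacZ value passed without replicate 2 (adjusted p = 0.0268) but not with all 4 replicates in either fit. IL-1β in LacZ gave -0.30, called with the block but not without it (adjusted p = 0.0362).

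The receptors of these factors were also measured, since fibroblasts carry several of them. Of 12 receptors, in LacZ fibroblasts 1 rose and 1 fell with bFGF, 2 rose and 3 fell with TGFβ, 1 rose and 2 fell with IL-1β and 3 rose and 1 fell with TNFα, beside 11.6%, 36.9%, 20.7% and 21.3% of all genes tested. In iCre fibroblasts 0 rose and 0 fell with bFGF, 1 rose and 3 fell with TGFβ, 2 rose and 0 fell with IL-1β and 2 rose and 4 fell with TNFα, beside 2.42%, 37.4%, 16.3% and 27.0% of all genes tested. Their median log2 fold change ranged from -0.60 to 0.31 over these 8 comparisons. In iCre against LacZ there were 1 higher and 0 lower under TGFβ, 3 higher and 1 lower under IL-1β and 1 higher and 5 lower under TNFα (beside 8.37%, 16.1% and 27.3% of all genes), with medians of 0.12, 0.03 and -1.05, and without the block none without ligand or with bFGF. Summed over these 13 comparisons the receptors had 37 calls in 156 tests (23.7%, beside 17.3% of all tests over all genes), 85 with the block (54.5%, beside 29.0%) and 82 with block and GC correction (52.6%, beside 27.0%). Over all genes the ligand medians lay between -0.17 and 0.00. Egfr, a receptor of Hbegf, Ereg and Areg, lay at 219 ± 77.6 CPM in LacZ CTRL (SD, n = 4, as for the genes that follow). Under TNFα it was at 271 ± 106 CPM in LacZ against 134 ± 52.5 CPM in iCre (log2 fold change -0.99, adjusted p = 0.0418), with adjusted p = 0.0696 without replicate 1, 0.135 without replicate 3 and 0.0921 without replicate 4. The VEGF co-receptor Nrp1 was at 181 ± 43.6 and 78.7 ± 14.5 CPM (log2 fold change -1.18, adjusted p = 0.0015), and its TNFα interaction passed (log2 fold change -1.16, adjusted p = 0.00283). Nrp2, a co-receptor for lymphatic VEGFs, was at 345 ± 229 and 83.1 ± 26.6 CPM (log2 fold change -2.03, adjusted p = 0.00472), while its interaction passed with the block but not without it (log2 fold change -2.41, adjusted p = 0.251, 0.0312 with the block). Met, the Hgf receptor, fell with TGFβ from 30.5 ± 6.24 to 8.79 ± 2.11 CPM in LacZ (log2 fold change -1.78, adjusted p = 8.76e-05) and to 9.55 ± 1.71 CPM in iCre (log2 fold change -1.69, adjusted p = 1.47e-05). Erbb2, the shared partner of the Erbb receptors, was at 46.2 ± 4.01 CPM in LacZ against 63.5 ± 2.65 CPM in iCre with IL-1β (log2 fold change 0.44, adjusted p = 0.00536), with adjusted p = 0.0702 without replicate 3.

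Among other ligands of the same families, 10 of 11 were tested, Nrg3 having 1 count in all. Of these 10, in LacZ fibroblasts 1 rose and 3 fell with bFGF, 1 rose and 5 fell with TGFβ, 1 rose and 2 fell with IL-1β and 1 rose and 3 fell with TNFα, beside 11.6%, 36.9%, 20.7% and 21.3% of all genes tested. In iCre fibroblasts 0 rose and 1 fell with bFGF, 1 rose and 3 fell with TGFβ, 1 rose and 1 fell with IL-1β and 0 rose and 3 fell with TNFα, beside 2.42%, 37.4%, 16.3% and 27.0% of all genes tested. Their median log2 fold change ranged from -1.25 to 0.10 over these 8 comparisons. In iCre against LacZ there were 0 higher and 0 lower under TGFβ, 2 higher and 1 lower under IL-1β and 2 higher and 1 lower under TNFα (beside 8.37%, 16.1% and 27.3% of all genes), with medians of 0.30, 0.13 and 0.81, and without the block none without ligand or with bFGF. They had 33 calls in 130 tests over the 13 comparisons (25.4%, beside 17.3% over all genes), and 50 with the block (38.5%, beside 29.0%). Angpt2, the antagonist of Angpt1 at Tek, fell with all 4 ligands in both LacZ and iCre. It went from 225 ± 74.9 CPM in LacZ CTRL to 7.74 ± 3.07 CPM with TGFβ (log2 fold change -4.85, adjusted p = 6e-06) and 16.4 ± 7.25 CPM with TNFα (log2 fold change -3.78, adjusted p = 0.000154). In iCre it went from 134 ± 81.3 CPM to 4.98 ± 3.14 CPM with TNFα (log2 fold change -4.70, adjusted p = 0.000374). Its iCre falls with bFGF and IL-1β were lost without replicate 1 or 3 (for bFGF adjusted p = 0.132 without replicate 1, 0.308 without replicate 3 and 0.106 without replicate 4, for IL-1β 0.0886 without replicate 1 and 0.129 without replicate 3). The EGF-type ligand Btc was close to absent with TGFβ, at 0.823 ± 0.452 CPM in LacZ (log2 fold change -3.54, adjusted p = 0.000176) and 0.919 ± 0.458 CPM in iCre (log2 fold change -4.80, adjusted p = 3.6e-06). Under IL-1β it was at 6.74 ± 1.98 CPM in LacZ against 18.8 ± 5.97 CPM in iCre (log2 fold change 1.47, adjusted p = 0.00284). Without ligand Btc was at 9.70 ± 3.64 CPM in LacZ against 26.4 ± 7.94 CPM in iCre, so the gap was not confined to IL-1β. Tgfa, another Egfr ligand, fell with TGFβ from 16.4 ± 4.82 to 5.30 ± 2.27 CPM in LacZ (log2 fold change -1.62, adjusted p = 0.00392). Pgf, placental growth factor, had opposite interactions with IL-1β and TNFα. It averaged 33.5 ± 1.19 CPM in LacZ against 13.5 ± 4.48 CPM in iCre with IL-1β (log2 fold change -1.46, adjusted p = 0.00597 for the interaction), and 0.724 ± 0.494 and 4.82 ± 4.44 CPM with TNFα (log2 fold change 2.62, adjusted p = 0.0275 for the interaction). These were lost without replicate 3 (adjusted p = 0.0793 without replicate 3 for IL-1β, and 0.157 without replicate 3 and 0.12 without replicate 4 for TNFα). Angpt4 rose with TGFβ in iCre from 1.75 ± 0.510 to 10.2 ± 2.71 CPM (log2 fold change 2.55, adjusted p = 3.25e-05). In LacZ it rose as well, from 4.495 ± 2.875 to 9.463 ± 2.248 CPM. The LacZ call was lost without replicates 1, 3 or 4 (adjusted p = 0.181, 0.135 and 0.108).

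Genes that release or restrain these factors formed the third list. Of 11 such genes, in LacZ fibroblasts 1 rose and 0 fell with bFGF, 3 rose and 1 fell with TGFβ, 3 rose and 1 fell with IL-1β and 3 rose and 1 fell with TNFα, beside 11.6%, 36.9%, 20.7% and 21.3% of all genes tested. In iCre fibroblasts 0 rose and 0 fell with bFGF, 3 rose and 4 fell with TGFβ, 2 rose and 1 fell with IL-1β and 4 rose and 1 fell with TNFα, beside 2.42%, 37.4%, 16.3% and 27.0% of all genes tested. Their median log2 fold change ranged from -0.53 to 0.40 over these 8 comparisons. In iCre against LacZ there were 1 higher and 1 lower under TGFβ, 2 higher and 3 lower under IL-1β and 2 higher and 4 lower under TNFα (beside 8.37%, 16.1% and 27.3% of all genes), with medians of 0.36, 0.41 and 0.19, and without the block none without ligand or with bFGF. These genes had 41 calls in 143 tests over the 13 comparisons (28.7%, beside 17.3% over all genes), 84 with the block (58.7%, beside 29.0%) and 72 with block and GC correction (50.3%, beside 27.0%). Adam17, the main sheddase of the EGF-type precursors, rose with TNFα in LacZ from 119 ± 13.8 to 309 ± 21.3 CPM (log2 fold change 1.39, adjusted p = 1.37e-05) and was at 154 ± 10.3 CPM in iCre with TNFα (log2 fold change -0.99, adjusted p = 0.00015 against LacZ). Its TNFα interaction passed (log2 fold change -1.06, adjusted p = 8.68e-05). Adam10 had negative interactions with TGFβ, IL-1β and TNFα, for TNFα with log2 fold change -0.54, adjusted p = 0.00318, and with block and GC correction log2 fold change -0.25, adjusted p = 0.0811. These calls were lost for TGFβ without replicate 3 or 4 (adjusted p = 0.145 and 0.123), and for IL-1β and TNFα without replicate 4 (adjusted p = 0.0512 for both). Errfi1, a feedback inhibitor of Egfr, was at 59.8 ± 38.9 CPM in LacZ against 544 ± 262 CPM in iCre with TNFα (log2 fold change 3.21, adjusted p = 0.00113). Under IL-1β it was at 76.5 ± 15.7 and 363 ± 106 CPM (log2 fold change 2.23, adjusted p = 0.000159). Lrig1, another restraint on Erbb receptors, was at 103 ± 24.5 and 339.9 ± 168 CPM with TNFα (log2 fold change 1.74, adjusted p = 0.00272). Adam9 rose with bFGF in LacZ from 448 ± 86.4 to 868 ± 236 CPM (log2 fold change 0.97, adjusted p = 0.0224), with adjusted p = 0.102 without replicate 1, 0.15 without replicate 3 and 0.133 without replicate 4.

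Over the 10 group means of log2 CPM, the genes most like each member were sought among 14142 genes with at least 1 CPM in a group. These correlations are descriptions over 10 points that share libraries, and no test was made. Vegfa went with Slc16a3 (r = 0.995) and Fkbp11 (r = 0.990), a lactate transporter and an endoplasmic reticulum protein respectively. Hbegf went with Il11 (r = 0.986) and Las1l (r = 0.986), of which Il11 is a cytokine made by fibroblasts. Vegfc was most like Ly75 (r = 0.983) and Scly (r = 0.977), Ereg like Extl3 (r = 0.985) and Ece1 (r = 0.969), and Vegfd like Clec3b (r = 0.975) and Ehbp1 (r = 0.973). For Vegfb these were Hvcn1 (r = 0.982) and Uap1l1 (r = 0.978) and for Angpt1 AW011738 (r = 0.975) and Hs3st3a1 (r = 0.951). Hgf went with Fndc3a (r = 0.960) and Pcdhgb6 (r = 0.943), Nrg1 with Gm26705 (r = 0.952) and Plekhg2 (r = 0.949), and Areg, at its low counts, with Map2k3 (r = 0.963) and Sema4c (r = 0.951), the first a kinase of the p38 pathway.

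The order of the 10 groups separated clearly for few members. For Vegfa and Hbegf both TGFβ groups, and for Vegfc LacZ with TNFα, stood above all other groups without overlap, while for Nrg1 both TGFβ groups had the highest means but overlapped with iCre CTRL, where 1 library reached 77.64 CPM. Vegfb had both TGFβ groups below all others. For Vegfd, Angpt1, Hgf, Ereg and Areg each group overlapped with its neighbour in the order of means. The ratio of the highest to the lowest group mean was 45.8 for Hbegf, 26.9 for Areg, 9.45 for Vegfd, 9.20 for Angpt1 and 8.88 for Vegfa, and 3.05 to 7.96 for Vegfb, Vegfc, Hgf, Ereg and Nrg1.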

How the data were processed

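Polyadenylated RNA of 40 cultures (10 groups of virus and ligand, 4 libraries each) had been sequenced. The deposited file holds whole-number counts per Ensembl gene, which the authors made by aligning single-end reads to mm10 with STAR and counting with HTSeq 0.10.0, after FastQC 0.10.1 per the labels. Annotation release and strand setting are not given in the sources used here, and the methods and labels name different library kits. Ensembl identifiers were matched to mouse symbols. The members and gene lists were chosen with earlier results of these data known.

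Genes with at least 10 counts over all libraries were fitted after TMM normalization and tested by quasi-likelihood in edgeR 4.0.16 (R 4.3.3), using the libraries compared only (8, or 16 for an interaction), with Benjamini-Hochberg adjustment over 25210 genes and a threshold of 0.05. This gave 8 ligand comparisons, 5 of iCre against LacZ and 4 interactions. CPM used TMM-scaled library sizes, and of each pathway list the 5 genes with the highest mean CPM over the 40 libraries were named. Libraries with the same replicate number deviated together in all 13 compared pairs of groups (correlations 0.31 to 0.85 over 12805 genes), so a fit with the replicate number as a block was run beside the test without it, and a fit with block and a GC-content correction as well. Other alternatives were RLE scaling, other filters, omission of each replicate number, a fit to all 40 libraries and DESeq2 1.42.0. The test was checked on simulated counts. Promoters were read from RefSeq (GRCm38.p6). Exon lengths and GC content came from the mouse gene annotation of the same build, the GC content being that of the longest transcript of each gene. Total counts were 25360947 to 66160732 per library (median 36183962), and no library was a copy of another.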

Additional observations from a re-analysis of the deposited data

Results flagged for a closer look

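In 10 of the 100 sets of 4 libraries (10 members in 10 groups) the highest or lowest library was farther from the rest than the 95% critical value of Dixon's test allows, where chance alone gives about 1 in 20. Vegfd was highest in replicate 1 of LacZ CTRL, at 955.1 CPM against 370.8 to 466.2 CPM, and in replicate 1 of iCre with bFGF, at 193.0 CPM against 72.36 to 86.76 CPM. Replicate 1 was lowest for Vegfc in LacZ with TNFα (130.5 CPM against 139.1 to 140.4 CPM) and for Hgf in iCre with IL-1β (204.3 CPM against 256.2 to 262.8 CPM). Replicate 4 of iCre with IL-1β was highest for Hbegf (53.72 CPM against 20.06 to 23.71 CPM) and for Ereg (166.8 CPM against 81.74 to 90.43 CPM). Angpt1 in replicate 2 was highest in iCre with bFGF (11.21 CPM against 6.136 to 6.464 CPM) and lowest in iCre with TGFβ (2.553 CPM against 12.02 to 12.57 CPM). Areg, at few counts, was highest in replicate 2 of iCre CTRL (1.041 CPM against 0.03273 to 0.139 CPM) and in replicate 4 of iCre with TGFβ (1.438 CPM against 0.185 to 0.3307 CPM).

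In 4 cases the ligand's change differed between iCre and LacZ by edgeR's test of the interaction. These were Hgf with TGFβ (log2 -1.11) and, with TNFα, Vegfc (-1.31), Angpt1 (-1.97) and Hbegf (2.49). Each was called with the block as well, and each lost its call when replicate 3 was left out without the block, the first 3 also without replicate 4. Hgf was not called with block and GC correction. In a fit to all 40 libraries by edgeR, Hgf and Vegfc were not called (adjusted p = 0.0555 and 0.0572).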

How the results depend on the processing

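Of 10 members in each family of comparisons, 19 calls were made for the ligands in LacZ, 18 in iCre, 8 for iCre against LacZ and 4 for interactions. With the replicate block, which follows the pairing of libraries by replicate number, these were 32, 29, 30 and 11, and with block and GC correction 30, 30, 32 and 11. DESeq2 gave 14 for iCre against LacZ, and a fit to all 40 libraries gave 2 interactions, those of Angpt1 and Hbegf with TNFα. Omitting 1 replicate number gave 15 to 27, 9 to 27, 5 to 16 and 0 to 7 calls. Without replicate 3 edgeR called 0 interactions, 7 having an unadjusted p under 0.05, and DESeq2 on all replicates called 6. RLE scaling and both other filters kept all 4 counts within 1.5 times. In all, 3 values passed with the opposite sign under block and GC correction. They were Vegfb with IL-1β in iCre (-0.174), Angpt1 in iCre against LacZ under TGFβ (0.407) and Nrg1 in the same comparison (0.295). The cause of these changes was not tested. Areg, at 0 to 147 counts per library, is the member whose precision depth limits most.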
